A study of Mus musculus with 36 samples.

Results

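The 9 genes described here are Stat2, Irf1, Irf7, Irf9, Isg15, Ifit1, Ifit3, Usp18 and Rsad2, which are interferon-stimulated genes or regulators of such genes. They were chosen by symbol from a count table of 36856 gene symbols, and all 9 passed the filter on low counts that left 16065 tested genes. RNA was sequenced from mouse embryonic fibroblasts, connective-tissue cells grown from mouse embryos, of 2 genotypes: wild type (WT) and PERK -/-, which lacks the endoplasmic reticulum stress kinase PERK (gene Eif2ak3). Cells of each genotype received DMSO (the solvent control), thapsigargin, BtdCPU, halofuginone, BtdCPU + thapsigargin or halofuginone + thapsigargin, which gives 12 groups of 3 libraries and 36 libraries in all. Thapsigargin blocks the calcium pump of the endoplasmic reticulum and causes stress there, BtdCPU is used as an activator of the eIF2 alpha kinase HRI, and halofuginone inhibits prolyl-tRNA synthetase and activates the kinase GCN2. The question was how these activators of the integrated stress response act in cells with and without PERK. The labels give 1 cell line name for both genotypes and no dose, duration, passage, clone or batch, so PERK genotype and other differences between the lines cannot be told apart. The labels number the libraries 1 to 3 in each group without saying that they came from separate cultures, so the p-values measure the spread between these libraries, which may be technical.

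Cells that sense foreign nucleic acid through RIG-I, MDA5 or cGAS and STING switch on type I interferon genes through the factors IRF3 and IRF7. Secreted interferon binds the receptor IFNAR, whose kinases JAK1 and TYK2 activate STAT proteins. STAT2 and IRF9 are subunits of the complex ISGF3, which binds the interferon-stimulated response element (ISRE) in promoters of antiviral genes, and the GAS element is a further site of interferon responses. Fibroblasts are a classic source of interferon beta and respond to it. Of the 9 genes, Stat2 and Irf9 encode subunits of ISGF3. Irf7 encodes an inducible factor that amplifies interferon production, and Irf1 encodes a related factor that is also induced by interferon gamma and inflammatory signals. Ifit1 and Ifit3 encode RNA-binding antiviral proteins, and Rsad2 encodes viperin, an enzyme that makes a chain-terminating nucleotide. Isg15 encodes a ubiquitin-like protein, and Usp18 encodes the protease that removes it from targets and also damps signalling at IFNAR.

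The ISRE and GAS letters upstream of these genes are shown first. The genes were chosen as interferon-stimulated genes or regulators of such genes, and the ISRE is an element of such promoters. Matches are therefore no independent support for the choice. RefSeq promoter windows of build GRCm38.p6 were matched for 8 of the 9 genes, and the 250 bases before each annotated start were searched on both strands. The ISRE core (GAAA, any 2 bases, GAAA) was found in 5 of the 8 genes and in 2.977% of the 32851 windows of the same length. The GAS letters TTCNNNGAA were found in 1 of the 8 genes, Irf1, and in 7.02% of all windows. The element TGATGNAA, read by the stress factor ATF4, was in 0 of the 8 and in 3.452% of all windows. A gene was counted if any of its windows matched, while the shares are over single windows. A match is a description of letters and not of a bound site. Capitals mark the matches below (the reverse complement of the ISRE core reads TTTC, any 2 bases, TTTC), each sequence runs 5′ to 3′ on the strand of the gene, and Irf7 and Irf9 had no match in their windows.
Stat2 (chr10:128270264-128270297, plus strand, -234 to -201 from the start): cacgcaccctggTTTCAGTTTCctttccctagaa
Isg15 (chr4:156200863-156200908, minus strand, -90 to -45): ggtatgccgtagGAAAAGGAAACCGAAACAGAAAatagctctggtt
Ifit1 (chr19:34640773-34640825, plus strand, -116 to -64): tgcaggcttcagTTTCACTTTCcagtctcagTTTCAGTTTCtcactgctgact
Ifit3 (chr19:34583361-34583428, plus strand, -168 to -101): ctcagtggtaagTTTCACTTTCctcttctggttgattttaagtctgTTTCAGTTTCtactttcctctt
Rsad2 (chr12:26456551-26456584, minus strand, -132 to -99): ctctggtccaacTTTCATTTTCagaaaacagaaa
Irf1 (chr11:53769912-53769944, plus strand, -102 to -70, GAS letters): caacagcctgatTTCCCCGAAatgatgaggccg
Isg15 holds 3 overlapping matches in 1 run, Ifit1 and Ifit3 hold 2 separate matches each, and Stat2 and Rsad2 hold 1 each. Ifit1 and Ifit3 share the letters TTTCACTTTC and TTTCAGTTTC in that order.

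Libraries held 32454257 to 37178107 counts, and 13251 to 14499 genes reached 10 counts. Within each treatment every PERK -/- library had less Eif2ak3 than every WT library, with 9.95 ± 0.760 CPM (counts scaled by library size, SD, n = 3) against 31.1 ± 1.10 CPM in DMSO. All 15 fibroblast markers were above 3 counts in every group. The 14 leukocyte markers summed to 11.1 to 39.1 CPM per library, of which myeloid genes were the most abundant: Cd14 reached 28.7 CPM, Csf1r 19.1, Fcgr1 5.49 and Cd68 3.70 CPM, while Ptprc, the pan-leukocyte gene, stayed at 0.956 CPM or less and Cd3e and Ncr1, of T cells and natural killer cells, had no count. Their sum was 14.4 to 21.0 CPM in WT DMSO and 23.1 to 34.8 CPM in WT thapsigargin, and 22.3 to 24.0 CPM in PERK -/- DMSO and 30.4 to 32.7 CPM in PERK -/- thapsigargin. With halofuginone alone the sum was 11.5 to 15.6 CPM in WT and 11.1 to 14.2 CPM in PERK -/- cells. It reached its highest value in PERK -/- BtdCPU + thapsigargin, at 31.5 to 39.1 CPM. In WT cells Cd14 went from 9.81 to 16.6 CPM in DMSO to 17.8 to 28.7 CPM with thapsigargin, and in PERK -/- cells Csf1r went from 4.68 to 7.15 CPM to 9.06 to 13.7 CPM. The 8 epithelial markers summed to 0.836 to 1.21 CPM in WT DMSO and 20.3 to 29.3 CPM in WT halofuginone, with Krt8, Krt18 and Krt19 the most abundant, and to 10.5 to 13.3 CPM in WT halofuginone + thapsigargin. In PERK -/- cells they summed to 1.39 to 1.96 CPM in DMSO and 3.35 to 4.96 CPM with halofuginone. The 7 endothelial markers summed to 0.340 to 1.24 CPM in WT DMSO and 3.93 to 7.43 CPM in WT halofuginone, with Kdr the most abundant. The part of these markers in the results below was not tested, and in bulk RNA fewer cells of a type and less RNA per cell cannot be told apart. The WT libraries numbered 3 stood apart for 7 of the 9 genes, as described next. Results that rest on them are also given without all 6 of them, an alternative chosen after seeing the data. Because the same genes were low in those libraries, leaving them out takes away part of the spread of these genes. Calls and adjusted p-values without them are therefore a description and not a test.

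In WT cells replicate 3 was the lowest of its group in 47 of 54 gene-group combinations. For 7 of the 9 genes it was the lowest in all 6 treatments, which held for 8.17% of all tested genes. Its level was a median of 14.8% of the mean of replicates 1 and 2 for Usp18, 20.4% for Irf7, 22.6% for Ifit3, 26.0% for Rsad2, 27.3% for Ifit1 and 36.3% for Isg15. The shares were higher for Irf9, at 59.4%, and Stat2, at 67.8%, and Irf1 was at 94.8%. Irf1 was instead the lowest in WT replicate 1 in all 6 treatments, which held for 0.492% of tested genes. Among PERK -/- libraries replicate 3 was the lowest in 25 of 54 combinations, and in all 6 treatments for 2 of the 9 genes against 3.48% of tested genes. There the medians were 102.7% for Stat2, 125.5% for Irf7, 108.9% for Usp18, 101.8% for Irf9 and 96.9% for Irf1. They were 85.7% for Ifit3, 84.9% for Isg15, 58.2% for Ifit1 and 34.7% for Rsad2. The leukocyte marker sum had a median of 16.4 CPM over the 6 WT libraries numbered 3, and of 21.0 and 22.4 CPM over those numbered 1 and 2.

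**Figure D1:**
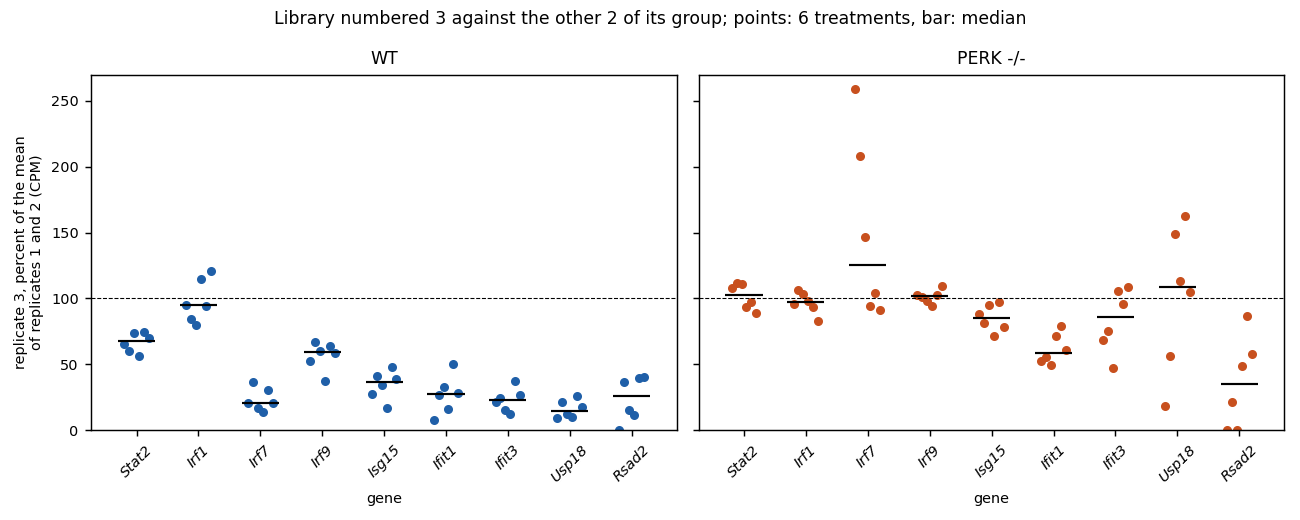
Level of each gene in replicate 3 as a percent of the mean of replicates 1 and 2 of the same group, 1 point per treatment, for WT (blue) and PERK -/- (orange). WT points of Usp18, Irf7, Ifit3, Ifit1 and Isg15 all lie below 50%, while WT Irf1 lies between 80.1% and 121.1% and PERK -/- points of Irf9 lie between 93.9% and 109.2%.

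Levels between genes are compared per kilobase of exon. In WT DMSO Irf1 was the most abundant of the 9 at 14.9 ± 1.39 CPM per kb (SD, n = 3), and Isg15, Stat2 and Irf9 followed at 6.07 ± 3.39, 5.12 ± 1.33 and 4.74 ± 1.75 CPM per kb. Usp18 stood at 1.98 ± 1.54, Ifit1 at 1.47 ± 1.16, Ifit3 at 0.929 ± 0.653 and Irf7 at 0.738 ± 0.597 CPM per kb. Rsad2 was near absent, with 4 counts in WT DMSO replicate 1 and 0 in the other 2 libraries. With thapsigargin the WT order was Isg15 (36.6 ± 16.5 CPM per kb), Irf1 (19.4 ± 5.27), Ifit1 (18.6 ± 13.4), Usp18 (16.1 ± 10.9) and Ifit3 (16.1 ± 11.5), so Irf1 no longer led. All values from here on are CPM, which compare 1 gene between groups.

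**Figure D2:**
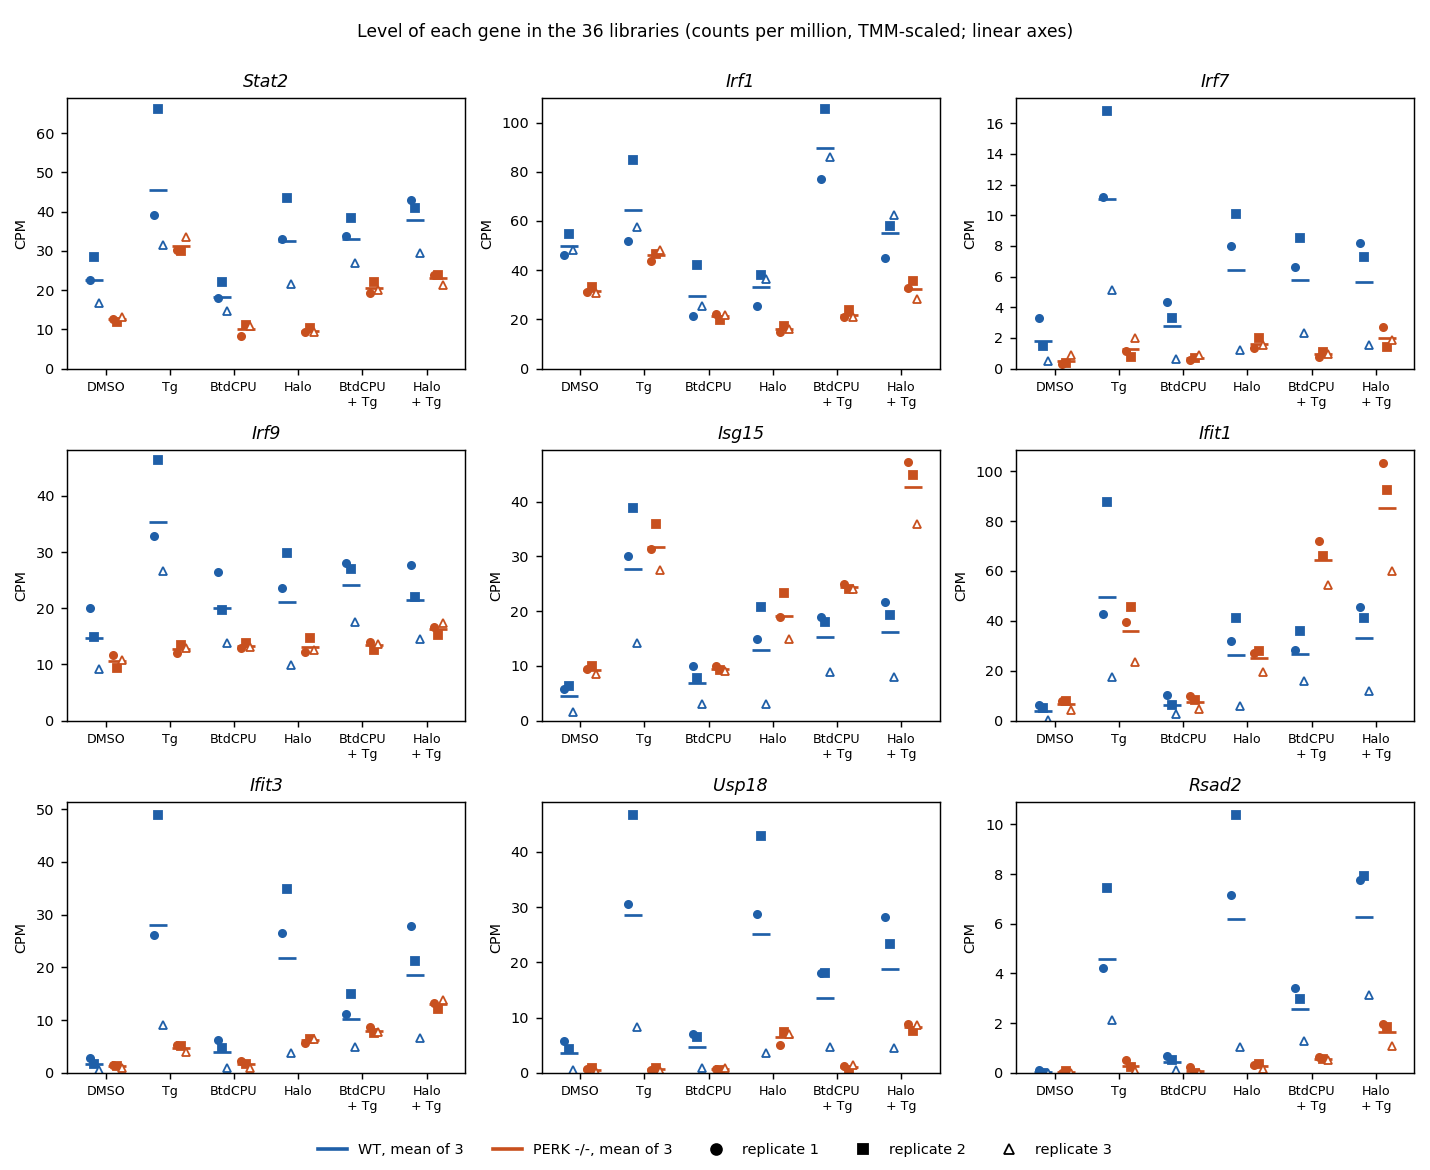
CPM of each of the 9 genes in the 36 libraries by treatment on linear axes from 0, WT in blue and PERK -/- in orange, with 1 symbol per library and a line at the mean of 3. Stat2, Irf7, Irf9, Ifit3 and Usp18 had their highest group mean in WT thapsigargin, whereas Isg15 and Ifit1 had it in PERK -/- halofuginone + thapsigargin.

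Thapsigargin raised 8 of the 9 genes in WT cells. Stat2 rose 2.02-fold and Irf9 2.40-fold, the effectors rose 5.999-fold (Isg15) or more, and Irf1 did not pass the test. A gene is called here when its adjusted p is below 0.05 over all 16065 tested genes, and 47.6% of tested genes were called in this comparison, 24.9% higher and 22.7% lower. The libraries of the groups did not overlap for 8 of the 9 genes and for 51.6% of tested genes. The median log2 fold change was 2.63 over the 9 genes and 0.02 over all tested genes. All 8 calls were kept when any 1 library was left out, and Irf1 was called (0.52, adjusted p 0.0332) without WT thapsigargin replicate 1.

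Stat2 stood at 22.5, 28.4 and 16.7 CPM in WT DMSO (replicates 1, 2 and 3, the order used throughout) and at 39.2, 66.0 and 31.5 CPM with thapsigargin. The groups did not overlap, and Stat2 rose by 1.02 on the log2 scale (SE 0.222, adjusted p 0.000331). Irf9 went from 20.0, 14.95 and 9.16 CPM to 32.9, 46.3 and 26.6 CPM, again without overlap, a log2 change of 1.26 (SE 0.281, adjusted p 0.000415). Irf7, the amplifier, moved furthest among the regulators. It stood at 3.31, 1.49 and 0.495 CPM in DMSO and at 11.2, 16.8 and 5.14 CPM with thapsigargin, a log2 change of 2.63 (SE 0.659, adjusted p 0.00143). Irf1 was at 46.0, 54.9 and 48.1 CPM in DMSO and at 51.7, 84.6 and 57.5 CPM with thapsigargin, with overlapping groups and a log2 difference of 0.38 (SE 0.182, adjusted p 0.086).

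Among the effectors, Isg15 stood at 5.80, 6.32 and 1.64 CPM in WT DMSO and at 30.0, 38.8 and 14.2 CPM with thapsigargin. It rose 5.999-fold (log2 2.58, SE 0.481, adjusted p 4.64e-05). Ifit1, whose protein binds viral RNA ends, went from 6.26, 5.06 and 0.433 CPM to 42.9, 87.8 and 17.5 CPM, 12.5-fold (log2 3.64, SE 0.676, adjusted p 5.33e-05). Ifit3 went from 2.74, 1.66 and 0.464 CPM to 26.1, 48.9 and 9.05 CPM, 17.1-fold (log2 4.10, SE 0.687, adjusted p 1.08e-05). These folds are large, but in each of the 4 effectors with counts in every DMSO library replicate 3 was the lowest library both before and after treatment. Usp18 stood at 5.74, 4.30 and 0.464 CPM in DMSO and at 30.5, 46.7 and 8.24 CPM with thapsigargin, 8.08-fold (log2 3.01, SE 0.782, adjusted p 0.00214).

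Rsad2, the viperin gene, had 4, 0 and 0 counts in WT DMSO and 136, 275 and 77 counts with thapsigargin. Fitted fold changes of so few control counts depend on the prior count and are not given. The ratio of summed counts, scaled for library size, was 119 with a 95% exact interval of 46.2 to 439, which covers counting error only, and the fit called the gene higher (adjusted p 1.3e-06). Ifit3 carries a caution of sequence: 51.2% of its 50-base words also occur in its neighbour Ifit3b, whose deposited symbol is I830012O16Rik, so reads could be split between them. I830012O16Rik rose by 3.82 (SE 0.669, adjusted p 2.03e-05), near the value of Ifit3. Ifit1 shared 7.13% of such words with other genes, almost all with Ifit1bl2, and Usp18, Rsad2, Irf1 and Irf7 shared 0%.

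**Figure D3:**
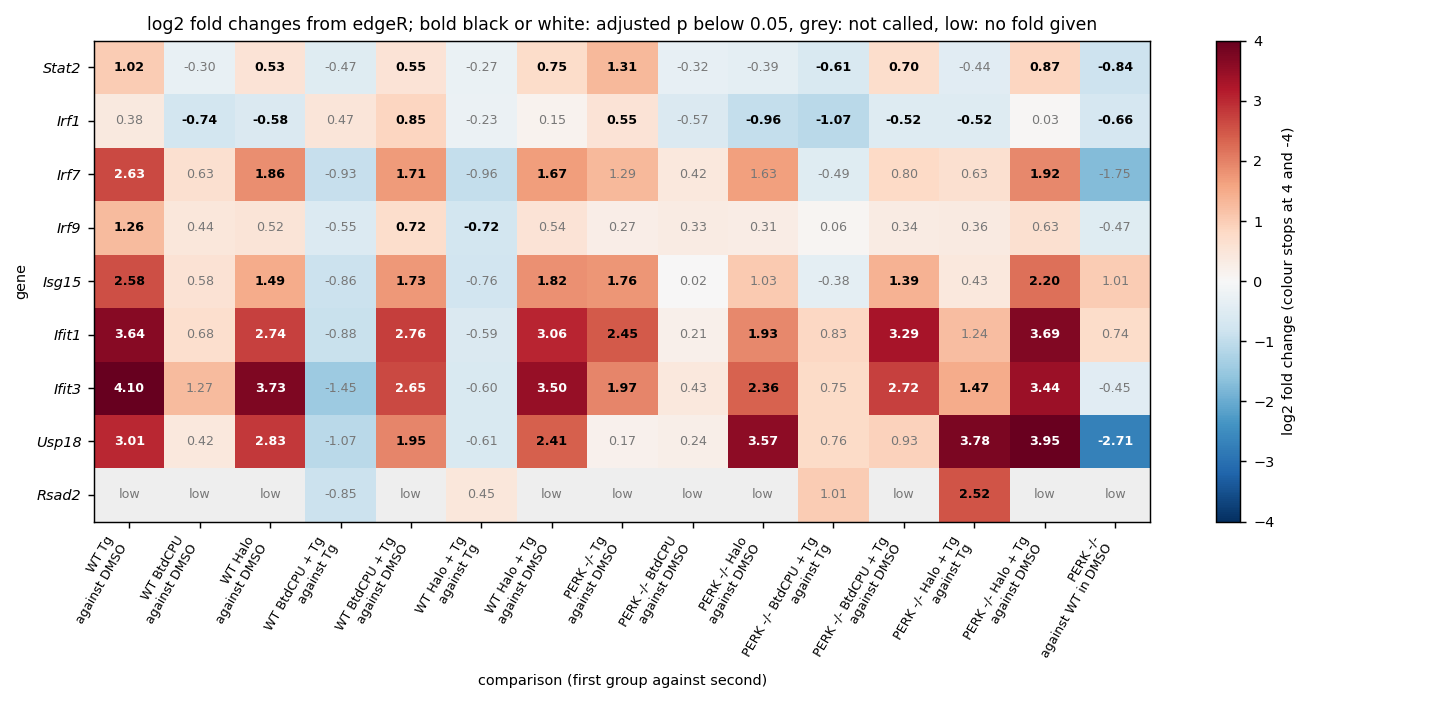
log2 fold changes of the 9 genes (rows) in the 15 comparisons of 2 groups (columns, Tg for thapsigargin and Halo for halofuginone), with bold numbers where the adjusted p is below 0.05. Rsad2 is marked low in comparisons with DMSO, where it had 4 or fewer counts per group. The column of WT thapsigargin against DMSO holds 7 called rises from 1.02 to 4.10, and neither column of BtdCPU against DMSO holds one.

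In PERK -/- cells thapsigargin raised 5 of the 9 genes: Stat2, Irf1, Isg15, Ifit1 and Ifit3. The background was 15.2% of tested genes called higher and 12.7% called lower, 27.9% in all, and the 3 libraries of the groups did not overlap for 7 of the 9 genes against 46.6% of tested genes. The median log2 difference of the 9 genes was 1.31, against 0.05 for all tested genes. Irf7, Irf9, Usp18 and Rsad2 were not called.

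Stat2 went from 12.6, 11.99 and 13.3 CPM in PERK -/- DMSO to 30.2, 29.9 and 33.6 CPM with thapsigargin, a log2 change of 1.31 (SE 0.226, adjusted p 3.7e-05). Its libraries were much closer together than in WT cells. Isg15 went from 9.42, 9.97 and 8.55 CPM to 31.4, 35.98 and 27.5 CPM (log2 1.76, SE 0.456, adjusted p 0.00364). Ifit1 went from 7.76, 7.91 and 4.09 CPM to 39.4, 45.4 and 23.4 CPM (log2 2.45, SE 0.637, adjusted p 0.00397). Both groups of libraries were apart for each of these genes.
Ifit3 went from 1.42, 1.27 and 0.914 CPM to 5.26, 4.99 and 3.87 CPM (log2 1.97, SE 0.7, adjusted p 0.0339), and this call was lost when any 1 of the 6 libraries was left out, with the highest adjusted p of 0.129 without PERK -/- DMSO replicate 3. Irf1 went from 30.9, 33.0 and 30.6 CPM to 43.8, 46.7 and 48.0 CPM (log2 0.55, SE 0.184, adjusted p 0.023). The Irf1 call was lost without PERK -/- thapsigargin replicate 2 (adjusted p 0.0799) or 3 (0.101), or without PERK -/- DMSO replicate 1 (0.0662) or 3 (0.0914).

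Usp18, Irf7, Irf9 and Rsad2 gave no call with thapsigargin in PERK -/- cells. Usp18 stood at 0.710, 0.772 and 0.134 CPM in DMSO and at 0.569, 0.846 and 0.400 CPM with thapsigargin, with overlapping groups (log2 0.17, SE 1.17, adjusted p 0.956). Irf7 stood at 0.300, 0.386 and 0.887 CPM and then at 1.14, 0.764 and 1.98 CPM (log2 1.29, adjusted p 0.24). Irf9 was at 11.7, 9.29 and 10.8 CPM and then at 12.03, 13.5 and 12.9 CPM, where all 3 treated libraries exceeded the controls but the log2 difference of 0.27 was not called (SE 0.284, adjusted p 0.534). Rsad2 had 0, 2 and 0 counts in DMSO and 19, 9 and 3 with thapsigargin, a ratio of 15.4 with an interval of 3.91 to 133 (adjusted p of the fit 0.0642).

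Whether the thapsigargin response itself differed between the genotypes was tested as the PERK -/- response minus the WT response. Of the 9 genes 1 was called, Irf9, against 38.1% of tested genes called in either direction. A fit with the replicate number as a block within genotype called more of the 9, as given in the closing section. Its share of all tested genes is not reported here. The Irf9 difference was -0.99 (SE 0.398, adjusted p 0.049), just past the threshold. It was lost without WT thapsigargin replicate 1 (adjusted p 0.0572) or 2 (0.164), WT DMSO replicate 2 (0.0736) or 3 (0.15), any PERK -/- thapsigargin replicate (0.0643 to 0.0902), or PERK -/- DMSO replicate 1 (0.102) or 3 (0.0799). Differences of Ifit3 (-2.13, SE 0.97, adjusted p 0.0836) and Usp18 (-2.84, SE 1.42, adjusted p 0.117) were not called. The Ifit3 difference was called without WT thapsigargin replicate 3 (-2.55, adjusted p 0.0356) or WT DMSO replicate 1 (-2.73, 0.0483). With all 6 WT libraries numbered 3 left out, the differences of Ifit3 and Usp18 were -2.13 (adjusted p 0.000114) and -2.78 (adjusted p 0.000161), and Irf9 (-0.91) and Isg15 (-0.74, adjusted p 0.0138) were called as well. Those libraries were chosen because these genes were low in them, so the adjusted p-values without them are no test. The Ifit3 difference itself was the same with and without them. Stat2 had a difference of 0.29 (SE 0.313, adjusted p 0.5).

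**Figure D4:**
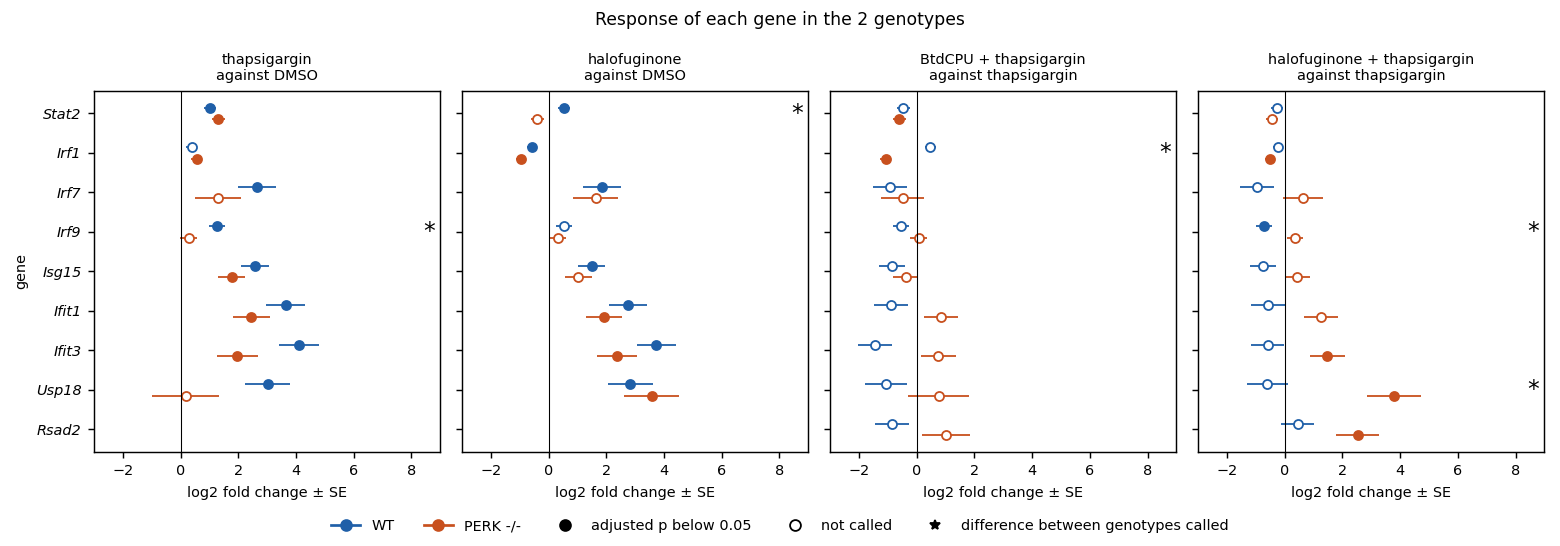
Log2 fold change ± SE of each gene in WT (blue) and PERK -/- (orange) cells for 4 treatments, with filled symbols for an adjusted p below 0.05 and an asterisk where the difference between genotypes was called. Rsad2 is left out against DMSO. Usp18 lies at 3.01 in WT and 0.17 in PERK -/- cells with thapsigargin, and at -0.61 and 3.78 for halofuginone + thapsigargin against thapsigargin.

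BtdCPU alone raised none of the 9 genes in WT cells and lowered 1, Irf1, where 22.2% of tested genes were called, 12.9% higher and 9.31% lower. Unadjusted p-values below 0.05 were found for 2 of the 9, Irf1 and Rsad2. The share of all tested genes at that unadjusted level is not reported here. Apart from Stat2 and Irf1, the other 7 genes were higher with BtdCPU in all 3 same-numbered pairs, with overlapping groups. The share of all tested genes with such pairs is not reported here. Without a filter on low counts 6 of the 9 were called, Irf1 lower and Irf9 (0.44), Isg15 (0.58), Ifit1 (0.68), Ifit3 (1.27) and Rsad2 higher. The share of all tested genes called in that fit is not reported here. Irf1 was at 21.4, 42.2 and 25.5 CPM with BtdCPU against 46.0, 54.9 and 48.1 CPM with DMSO. The groups did not overlap, and Irf1 fell by 0.74 on the log2 scale (SE 0.185, adjusted p 0.0039), a call lost without WT BtdCPU replicate 1 (-0.55, adjusted p 0.0608). Ifit3 was at 6.26, 4.76 and 0.853 CPM, each above the DMSO library of the same number but with overlap (log2 1.27, SE 0.688, adjusted p 0.195). Rsad2 had 21, 18 and 3 counts against 4, 0 and 0, a ratio of 10.97 with an interval of 3.98 to 42.1 (adjusted p of the fit 0.0532). Rsad2 was called without WT BtdCPU replicate 3 (adjusted p 0.04) or WT DMSO replicate 1 (0.0449). Ifit3 (1.31) and Rsad2 were called without the 6 WT libraries numbered 3. The groups did not overlap for Irf1 alone of the 9, and for 28.3% of tested genes.

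BtdCPU alone in PERK -/- cells gave no called gene among the 9 in the edgeR fit, against 3.59% of tested genes called, 2.55% higher and 1.04% lower, and DESeq2 also called none. An unadjusted p below 0.05, whose share of all tested genes is not reported here, was found for 1 gene, Irf1. It stood at 22.3, 19.6 and 21.7 CPM against 30.9, 33.0 and 30.6 CPM with DMSO. These libraries did not overlap, as held for 3 of the 9 genes (Stat2, Irf1 and Irf9) and 25.6% of tested genes, and the log2 difference was -0.57 (SE 0.186, adjusted p 0.0896). Isg15 was at 9.90, 9.27 and 9.12 CPM, close to its DMSO values (log2 0.02, SE 0.457). The response to BtdCPU differed between genotypes for 0 of the 9 genes, where 0.199% of tested genes were called, and no member had an unadjusted p below 0.05.

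Halofuginone alone raised 7 of the 9 genes in WT cells and lowered Irf1. It changed 68.2% of tested genes, 34.7% higher and 33.4% lower, and the medians were 1.86 for the 9 genes and 0.00 for all tested genes. Only 3 of the 9 genes had groups without overlap (67.5% of tested genes did). For Usp18, Ifit1, Isg15 and Irf7 replicate 3 lay inside the DMSO range. The epithelial and endothelial marker sums given above were also higher in these libraries than in every WT DMSO library, and their part in these changes was not tested.

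Ifit3 stood at 26.6, 34.9 and 3.67 CPM with halofuginone, above its 3 DMSO libraries (log2 3.73, SE 0.682, adjusted p 1.63e-05). Usp18 stood at 28.8, 42.8 and 3.52 CPM, so replicate 3 lay under DMSO replicates 1 and 2 (log2 2.83, SE 0.778, adjusted p 0.00209). Ifit1 stood at 32.0, 41.1 and 5.86 CPM (log2 2.74, SE 0.663, adjusted p 0.000613), with replicate 3 again inside the DMSO range. Each of these libraries was still above the DMSO library of the same number. Isg15 was at 14.9, 20.7 and 3.05 CPM (log2 1.49, SE 0.476, adjusted p 0.00691), Irf7 at 8.02, 10.1 and 1.23 CPM (log2 1.86, SE 0.655, adjusted p 0.0133) and Stat2 at 33.0, 43.4 and 21.4 CPM (log2 0.53, SE 0.221, adjusted p 0.0335).
Calls of these 3 genes were lost when single libraries were left out, which also leaves fewer libraries in a group and lowers the power of the test. Isg15 was not called without WT halofuginone replicate 2 (0.96, adjusted p 0.0995) or WT DMSO replicate 3 (1.09, 0.0622). Irf7 was not called without halofuginone replicate 1 (adjusted p 0.0543) or 2 (0.0919), or DMSO replicate 2 (0.0523) or 3 (0.084). Stat2 was not called without halofuginone replicate 1 (adjusted p 0.104) or 2 (0.27, 0.318), or DMSO replicate 1 (0.0705) or 3 (0.35, 0.196).

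Rsad2 had 231, 354 and 33 counts with halofuginone in WT cells, a ratio to DMSO of 161 with an interval of 62.5 to 592. Irf9 was not called at 23.6, 29.8 and 9.99 CPM (log2 0.52, SE 0.28, adjusted p 0.0984), and was called without the 6 WT libraries numbered 3 (0.55, adjusted p 0.00575), without WT halofuginone replicate 3 (0.81, 0.00682) or without WT DMSO replicate 1 (0.80, 0.0248). Irf1 went the other way. It was at 25.3, 38.1 and 36.4 CPM, below every DMSO library (log2 -0.58, SE 0.184, adjusted p 0.00659).

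Halofuginone in PERK -/- cells raised Ifit1, Ifit3, Usp18 and Rsad2 and lowered Irf1, which makes 4 called higher (21.2% of tested genes) and 1 called lower (21% of tested genes), against 42.2% of tested genes called in all. The libraries of the groups did not overlap for any of the 9 genes, which held for 54.1% of tested genes. Usp18 went from 0.710, 0.772 and 0.134 CPM to 4.94, 7.39 and 6.97 CPM, 11.9-fold (log2 3.57, SE 0.949, adjusted p 0.00299). The gene that was not called with thapsigargin in these cells had the largest called log2 change with halofuginone among the 8 genes with a fold. Ifit3 reached 5.69, 6.43 and 6.42 CPM (log2 2.36, SE 0.695, adjusted p 0.00651). Ifit1 reached 27.3, 28.1 and 19.7 CPM (log2 1.93, SE 0.631, adjusted p 0.0144), a call lost without PERK -/- DMSO replicate 3 (1.68, adjusted p 0.0752).
Rsad2 had 12, 13 and 6 counts against 0, 2 and 0. The ratio was 15.5 with an interval of 3.95 to 134, and the call (adjusted p 0.0454) was lost without PERK -/- halofuginone replicate 1 (0.0902) or 2 (0.0974), or without PERK -/- DMSO replicate 1 (0.128), 2 (0.0509) or 3 (0.129). Irf1 fell from 30.9, 33.0 and 30.6 CPM to 15.1, 17.5 and 15.99 CPM (log2 -0.96, SE 0.188, adjusted p 0.000105). Stat2 was at 9.25, 10.4 and 9.19 CPM, under all 3 DMSO libraries, with a log2 difference of -0.39 that was not called (SE 0.23, adjusted p 0.176). Irf7, Irf9 and Isg15 were above DMSO in all 3 libraries without a call (log2 1.63, 0.31 and 1.03, adjusted p 0.0919, 0.402 and 0.0662).

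In the fit without a replicate block the halofuginone response differed between genotypes for Stat2 alone among the 9 (35% of tested genes were called in either direction). The difference was -0.92 (SE 0.319, adjusted p 0.0237), from 0.53 in WT and -0.39 in PERK -/- cells. It was lost without WT halofuginone replicate 1 (adjusted p 0.0522) or 2 (-0.66, 0.107), WT DMSO replicate 3 (0.0756), PERK -/- halofuginone replicate 1 (0.0607) or 3 (0.0592), or PERK -/- DMSO replicate 3 (0.0647). With the 6 WT libraries numbered 3 left out it was -0.92, and Ifit3 was then called too (-1.38, adjusted p 0.00869). Usp18 rose in both genotypes, and the difference of its responses was 0.74 (SE 1.23, adjusted p 0.683).

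Adding BtdCPU to thapsigargin in WT cells gave no call among the 9 genes in edgeR, where 2.32% of tested genes were called, 1.29% higher and 1.02% lower. None of the 9 had groups without overlap, against 18.7% of tested genes. An unadjusted p below 0.05 was found for 3 genes, Stat2, Irf1 and Ifit3, with no share of all tested genes reported at that level. DESeq2 also called none of the 9. For 8 of the 9 genes the level was lower with the addition in each of the 3 same-numbered pairs. The share of all tested genes with such pairs is not reported here. Pairs of the 9 genes had a median r of 0.912 within WT groups, so these genes are not separate observations. Usp18 was at 18.1, 18.02 and 4.67 CPM against 30.5, 46.7 and 8.24 CPM (log2 -1.07, SE 0.712, adjusted p 0.469). Ifit3 was at 11.1, 14.8 and 4.85 CPM against 26.1, 48.9 and 9.05 CPM (log2 -1.45, SE 0.587, adjusted p 0.191). Irf1 was the exception, with 77.0, 105 and 86.1 CPM against 51.7, 84.6 and 57.5 CPM (log2 0.47, SE 0.182, adjusted p 0.166), and it was called without WT thapsigargin replicate 2 (0.71, adjusted p 0.0486).
In this comparison same-numbered libraries deviated together, so the fit with the replicate number as a block is given beside it. It called 7 of the 9: Irf1 higher (0.49, adjusted p 0.00286), and Stat2 (-0.43, adjusted p 0.00941), Irf7 (-0.999, adjusted p 0.0168), Irf9 (-0.56, adjusted p 0.01), Isg15 (-0.82, adjusted p 0.00146), Ifit3 (-1.33, adjusted p 0.000903) and Usp18 (-1.01, adjusted p 0.0155) lower. With no block and without the 6 WT libraries numbered 3, Isg15 (-0.90, adjusted p 0.0131) and Ifit3 (-1.54, adjusted p 0.00419) were called lower. Over all tested genes 2079 were called with the block and 71 without those libraries, against 372 in the main fit.

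Adding halofuginone to thapsigargin in WT cells lowered Irf9 and gave no other call among the 9, with 45.3% of tested genes called, 22.8% higher and 22.5% lower. Groups overlapped for all 9 genes, while they did not for 48.7% of tested genes. Irf9 was at 27.7, 21.98 and 14.5 CPM against 32.9, 46.3 and 26.6 CPM, lower in each same-numbered pair with 1 library inside the other group's range (log2 -0.72, SE 0.276, adjusted p 0.0328). The call was lost without WT halofuginone + thapsigargin replicate 2 (adjusted p 0.0604) or 3 (-0.51, 0.192), or WT thapsigargin replicate 2 (-0.49, 0.196). Here too same-numbered libraries deviated together, and the fit with the replicate block called Irf7 (-1.13, adjusted p 0.00111), Irf9 (-0.75, adjusted p 6.12e-05), Isg15 (-0.78, adjusted p 0.000211) and Usp18 (-0.66, adjusted p 0.0417) lower. With the 6 WT libraries numbered 3 left out and no block, the called genes were Irf7 (-0.88), Irf9 (-0.70), Isg15 (-0.77) and Ifit3 (-0.64), all lower. The share of all tested genes called in either of these fits is not reported here. Rsad2 was the one gene with more counts in every same-numbered pair, 269, 288 and 111 against 136, 275 and 77 (log2 0.45, SE 0.571, adjusted p 0.55).

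Halofuginone added to thapsigargin in PERK -/- cells raised Usp18, Ifit3 and Rsad2 and lowered Irf1, which is 3 called higher (25.2% of tested genes) and 1 lower (27.5%), with 52.7% of tested genes called in all. Groups did not overlap for 8 of the 9 genes and 63.2% of tested genes. Usp18 went from 0.569, 0.846 and 0.400 CPM with thapsigargin to 8.81, 7.61 and 8.61 CPM with both, 13.7-fold (log2 3.78, SE 0.928, adjusted p 0.00102). Rsad2 went from 19, 9 and 3 counts to 74, 67 and 41 counts, a ratio of 5.81 with an interval of 3.95 to 8.80 (log2 2.52, SE 0.753, adjusted p 0.00544). These changes were kept whichever 1 library was left out.
Ifit3 went from 5.26, 4.99 and 3.87 CPM to 13.2, 12.1 and 13.8 CPM (log2 1.47, SE 0.608, adjusted p 0.0423). That call was lost without any 1 of the 6 libraries, with the highest adjusted p of 0.119 without PERK -/- thapsigargin replicate 3. Ifit1 reached 103, 92.6 and 59.9 CPM, all above the thapsigargin libraries, without a call (log2 1.24, SE 0.589, adjusted p 0.0774). Irf1 fell to 32.8, 35.6 and 28.2 CPM (log2 -0.52, SE 0.184, adjusted p 0.0177), a call lost without PERK -/- halofuginone + thapsigargin replicate 1 (adjusted p 0.0521) or 3 (0.111), or PERK -/- thapsigargin replicate 2 (0.0566) or 3 (0.0657).

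The response to this addition differed between genotypes for 2 of the 9 genes, both higher in PERK -/- cells (32.7% of tested genes were called, 15.9% higher and 16.9% lower). For Usp18 the difference was 4.39 (SE 1.17, adjusted p 0.0043), kept whichever library was left out. For Irf9 it was 1.08 (SE 0.394, adjusted p 0.0345), and it was lost without WT halofuginone + thapsigargin replicate 3 (0.86, adjusted p 0.113), WT thapsigargin replicate 2 (0.88, 0.101), PERK -/- halofuginone + thapsigargin replicate 3 (0.0511) or PERK -/- thapsigargin replicate 1 (0.0689). Differences of Ifit3 (2.07, adjusted p 0.0562), Ifit1 (1.83, adjusted p 0.0932), Rsad2 (2.07, adjusted p 0.0948) and Isg15 (1.197, adjusted p 0.143) were not called. Leaving out WT thapsigargin replicate 3 gave calls for Ifit3 (2.49, adjusted p 0.0196) and Ifit1 (2.23, 0.0393), and leaving out WT halofuginone + thapsigargin replicate 1 one for Ifit3 (2.48, 0.0333). Without the 6 WT libraries numbered 3, all of these and Irf7 were called: Usp18 4.42, Rsad2 2.15, Ifit3 2.14, Ifit1 1.89, Irf7 1.54, Isg15 1.24 and Irf9 1.09. The WT part of this difference comes from libraries whose numbers deviated together, with every correlation over 0.1. For the PERK -/- part the correlations were 0.0305, 0.0182 and 0.131, short of that cut. With the replicate number as a block within genotype, 7 of the 9 were called, all higher in PERK -/- cells: Usp18 (4.44, adjusted p 2.01e-08), Irf9 (1.11, adjusted p 6.45e-05), Ifit3 (2.03, adjusted p 2.97e-05), Isg15 (1.21, adjusted p 7.37e-05), Ifit1 (1.81, adjusted p 0.000556), Irf7 (1.80, adjusted p 0.00118) and Rsad2 (2.08, adjusted p 0.004). The share of all tested genes called with the block or without the WT libraries numbered 3 is not reported here. Both counts of the 9 genes therefore lack a background.

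BtdCPU added to thapsigargin in PERK -/- cells lowered Stat2 and Irf1 and raised none of the 9, with 35.6% of tested genes called, 18.3% lower and 17.3% higher. Groups did not overlap for 5 of the 9 genes and 52.9% of tested genes. Irf1 went from 43.8, 46.7 and 48.0 CPM to 20.9, 24.0 and 21.0 CPM (log2 -1.07, SE 0.186, adjusted p 3.15e-05), and no library left out ended that call. Stat2 went from 30.2, 29.9 and 33.6 CPM to 19.3, 21.9 and 20.1 CPM (log2 -0.61, SE 0.221, adjusted p 0.0303), a call lost when any 1 of the 6 libraries was left out, with the highest adjusted p of 0.118 without BtdCPU + thapsigargin replicate 1. Ifit1 was at 72.2, 66.1 and 54.4 CPM, above every thapsigargin library, without a call (log2 0.83, SE 0.586, adjusted p 0.286).
The test of the difference between genotypes called Irf1 (20.8% of tested genes were called in either direction). Its difference was -1.54 (SE 0.26, adjusted p 5.42e-05), from 0.47 in WT and -1.07 in PERK -/- cells, and it was kept under each library left out. Differences of Ifit3 (2.20, SE 0.845, adjusted p 0.0621) and Ifit1 (1.72, SE 0.831, adjusted p 0.152) were not called, though Ifit3 was without WT thapsigargin replicate 3 (2.62, adjusted p 0.0241). With the 6 WT libraries numbered 3 left out the called genes were Irf1 (-1.45), Ifit3 (2.33), Ifit1 (1.90), Usp18 (1.90) and Irf9 (0.64). Numbers of the WT libraries deviated together here too, with every correlation over 0.1. Those of the PERK -/- libraries were 0.0615, 0.0437 and 0.133, above 0 but short of that cut. The fit with the replicate block called 6 of the 9: Irf1 (-1.56, adjusted p 3.75e-09), Ifit3 (2.08, adjusted p 5.53e-05), Ifit1 (1.57, adjusted p 0.00326), Usp18 (1.77, adjusted p 0.0143), Rsad2 (1.90, adjusted p 0.0205) and Irf9 (0.62, adjusted p 0.0233). The share of all tested genes called in these alternative fits is not reported here.

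The combined treatments were also compared with DMSO. They share their DMSO libraries with the comparisons above, so the values are given side by side and no likeness is drawn from them. In WT cells BtdCPU + thapsigargin raised all 9 genes (52.6% of tested genes were called, 28% higher and 24.5% lower), from 0.55 for Stat2 to 2.76 for Ifit1 among the 8 genes with a fold, and Rsad2 had 288 counts against 4. Irf1 was among them at 0.85 (SE 0.183, adjusted p 0.000247), with its highest group mean of all 12 groups, 89.5 CPM. Groups did not overlap for 5 of the 9 genes and 56.1% of tested genes. The calls of Stat2, Irf7, Irf9 and Usp18 were lost without WT BtdCPU + thapsigargin replicate 1 (log2 0.47, 1.55, 0.54 and 1.63) or 2 (0.37, 1.27, 0.58 and 1.64) and without WT DMSO replicate 3 (0.37, 1.27, 0.47 and 1.43). Without WT DMSO replicate 1 Stat2 was lost (0.54, adjusted p 0.0809), and without WT DMSO replicate 2 Irf7 (1.59), Irf9 (0.72) and Usp18 (2.11) were.
WT halofuginone + thapsigargin raised 7 of the 9 (65.7% of tested genes were called, 34.3% higher and 31.4% lower, and 5 of the 9 and 66.4% of tested genes had groups without overlap). Stat2 rose by 0.75, Irf7 by 1.67, Isg15 by 1.82, Ifit1 by 3.06, Ifit3 by 3.50 and Usp18 by 2.41, and Rsad2 had 668 counts against 4. Irf7 was not called without WT halofuginone + thapsigargin replicate 1 (1.31) or 2 (1.45), or WT DMSO replicate 2 (1.56) or 3 (1.23). Irf9 was not called (0.54, SE 0.28, adjusted p 0.0896) but was without the 6 WT libraries numbered 3 (0.43), without WT halofuginone + thapsigargin replicate 3 (0.75, adjusted p 0.028) or without WT DMSO replicate 1 (0.82, 0.0227). Irf1 stood at 45.1, 57.9 and 62.4 CPM, overlapping DMSO (0.15, adjusted p 0.474).

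Halofuginone + thapsigargin raised 7 of the 9 genes over DMSO in PERK -/- cells (45.1% of tested genes were called, 22.9% of tested genes higher and 22.2% lower), with a median of 2.20 over the 9 and 8 of the 9 without overlap (57.1% of tested genes). Usp18 rose 15.5-fold (log2 3.95, SE 0.945, adjusted p 0.00101), Ifit1 12.9-fold (log2 3.69, SE 0.66, adjusted p 3.34e-05), Ifit3 10.8-fold (log2 3.44, SE 0.694, adjusted p 0.000137) and Isg15 4.58-fold (log2 2.20, SE 0.46, adjusted p 0.000215). Isg15 stood at 47.2, 44.9 and 36.01 CPM and Ifit1 at 103, 92.6 and 59.9 CPM, the highest group means of these genes anywhere in the study. Stat2 rose by 0.87 (SE 0.225, adjusted p 0.0021) and Rsad2 had 182 counts against 2, a ratio of 89.3 with an interval of 24.4 to 743. Irf7 rose by 1.92 (SE 0.764, adjusted p 0.04), a call lost without PERK -/- halofuginone + thapsigargin replicate 1 (1.62) or 3 (1.94), or PERK -/- DMSO replicate 1 (1.64) or 2 (1.74).
PERK -/- BtdCPU + thapsigargin raised 5 genes and lowered Irf1 (31.4% of tested genes were called, 16.8% higher and 14.6% lower, and 7 of the 9 and 48.9% of tested genes had groups without overlap). Ifit1 rose 9.76-fold (log2 3.29, SE 0.651, adjusted p 0.000225) and Ifit3 6.59-fold (log2 2.72, SE 0.693, adjusted p 0.00275), while Usp18 stood at 1.15, 0.545 and 1.38 CPM and was not called (log2 0.93, SE 1.08, adjusted p 0.568). Rsad2 had 23, 21 and 19 counts against 0, 2 and 0, a ratio of 31.2. The calls of Stat2 (0.70), Isg15 (1.39) and Irf1 (-0.52) were each lost without single libraries. The Stat2 call was lost without BtdCPU + thapsigargin replicate 2 (0.64) or DMSO replicate 2 (0.66). The Isg15 call was lost without any 1 DMSO replicate (1.33 to 1.44). The Irf1 call was lost without any 1 DMSO replicate, or without BtdCPU + thapsigargin replicate 1 or 3 (-0.54 to -0.49).

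Untreated PERK -/- cells differed from untreated WT cells in 3 of the 9 genes, all lower (49.5% of tested genes were called, 24.9% lower and 24.6% higher). Groups did not overlap for 3 of the 9 genes and 57% of tested genes. Stat2 was at 12.6, 11.99 and 13.3 CPM against 22.5, 28.4 and 16.7 CPM (log2 -0.84, SE 0.226, adjusted p 0.00257), and Irf1 at 30.9, 33.0 and 30.6 CPM against 46.0, 54.9 and 48.1 CPM (log2 -0.66, SE 0.184, adjusted p 0.00361). Neither pair of groups overlapped. Usp18 was lower by 2.71 (SE 0.972, adjusted p 0.0218) with 1 overlapping library, WT replicate 3. The Usp18 call was lost without WT DMSO replicate 1 (-2.16, adjusted p 0.107) or 2 (-2.54, 0.0617), or PERK -/- DMSO replicate 3 (-2.25, 0.0978). Isg15 pointed the other way, at 9.42, 9.97 and 8.55 CPM against 5.80, 6.32 and 1.64 CPM with no overlap and no call (log2 1.01, SE 0.477, adjusted p 0.0776). Irf7 was also called without WT DMSO replicate 3 (-2.18, adjusted p 0.0274) or PERK -/- DMSO replicate 3 (-2.37, 0.0484), and Irf9 without WT DMSO replicate 3 (-0.72, 0.0454). Leaving out the 6 WT libraries numbered 3 gave 7 called genes, adding Irf7 (-2.18), Irf9 (-0.73), Ifit3 (-0.88) and Isg15 (0.61). The share of all tested genes called without those libraries is not reported here.

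Over the 12 groups the spread of levels differed widely between genes. The highest group mean was 3.33 times the lowest for Irf9, 4.74 times for Stat2, 5.53 times for Irf1 and 9.31 times for Isg15. It was 21.1 times for Irf7, 21.8 times for Ifit1, 23.3 times for Ifit3 and 52.9 times for Usp18. Stat2 ran from 9.62 CPM in PERK -/- halofuginone to 45.6 CPM in WT thapsigargin, and Irf9, Irf7, Ifit3 and Usp18 ran from PERK -/- DMSO to WT thapsigargin. With the groups in order of their means, the libraries of neighbouring groups overlapped in 11 of 11 pairs for Irf7, 10 of 11 for Irf9, Ifit1, Usp18 and Rsad2, 9 of 11 for Irf1, Isg15 and Ifit3 and 8 of 11 for Stat2, so most single steps in these orders lie within the spread.

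Genes whose log2 CPM ran most like each member over the 36 libraries were listed by Pearson's r, as a description of points that share genotype, treatment and replicate number. Ifit3 was closest to its neighbour I830012O16Rik (r = 0.991), which shares sequence with it. Irf7 was closest to Irgm2 (0.929), an interferon-inducible GTPase gene that also ran with Irf9 (0.903), and its next genes were Iigp1 (0.909) and Igtp (0.903) of the same kind. Usp18 was closest to Iigp1 (0.933), with Rheb (0.932) and Cwf19l2 (0.929), which are in no interferon list used here, at nearly the same r. Ifit1 likewise had Oasl1 (0.920) beside Rnf13 (0.917). The closest genes were outside those lists for Stat2 (Armcx3, 0.927), Irf1 (2310047M10Rik, 0.911), Isg15 (Gm9706, 0.940, then Tfb1m, 0.910) and Rsad2 (Ddx50, 0.934, then I830012O16Rik, 0.923), and the third for Irf1 was the kinase gene Tyk2 (0.894).
Within groups, after removing group means, the 10 pairs among the 5 effectors (Isg15, Ifit1, Ifit3, Usp18 and Rsad2) had r from 0.818 to 0.983 over the 18 WT libraries and from 0.228 to 0.744 over the 18 PERK -/- libraries, the highest for Ifit1 with Ifit3. Irf7 with the effectors ran from 0.923 to 0.986 in WT and from -0.655 to -0.279 in PERK -/- libraries, and Stat2 from 0.769 to 0.882 and from -0.644 to 0.05. Irf9 ran from 0.934 to 0.963 and from -0.330 to 0.144, and Irf1 from -0.02 to 0.04 and from -0.08 to 0.453. The WT values share the low level of replicate 3 that 7 of the 9 genes had. Irf7, Usp18 and Rsad2 had few counts in some PERK -/- libraries, where counting error adds to the spread. In DMSO these were 11, 14 and 33 of Irf7, 26, 28 and 5 of Usp18 and 0, 2 and 0 of Rsad2. A difference in r between the genotypes was not tested.

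The interferon genes themselves were scarcely read. Of 21 interferon genes looked at, 12 had no count in any library, and only Ifnb1, the gene of interferon beta, passed the filter. Ifnb1 had 0 counts in the 3 WT DMSO libraries, 1, 5 and 5 with thapsigargin, 11, 12 and 4 with halofuginone, 8, 8 and 3 with BtdCPU + thapsigargin and 17, 9 and 17 with halofuginone + thapsigargin. PERK -/- libraries had 0, 3 and 0 counts in DMSO, 0 in all 3 thapsigargin libraries, 1, 0 and 3 with halofuginone, 4, 0 and 0 with BtdCPU + thapsigargin and 8, 11 and 9 with halofuginone + thapsigargin. BtdCPU alone gave 0, 0 and 2 counts in WT and 0, 0 and 1 in PERK -/- libraries. At these counts no fold is given. The fit called Ifnb1 higher than DMSO in WT cells with thapsigargin (adjusted p 0.0186), halofuginone (0.00056), BtdCPU + thapsigargin (0.00408) and halofuginone + thapsigargin (0.000129). In PERK -/- cells it was called higher than DMSO only with halofuginone + thapsigargin (0.015). Differences between genotypes were called for the thapsigargin (0.0183) and halofuginone (0.0463) responses, both lower in PERK -/- cells. These calls rest on few counts. Every other interferon gene stayed at 8 counts or fewer in every library.

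**Figure D5:**
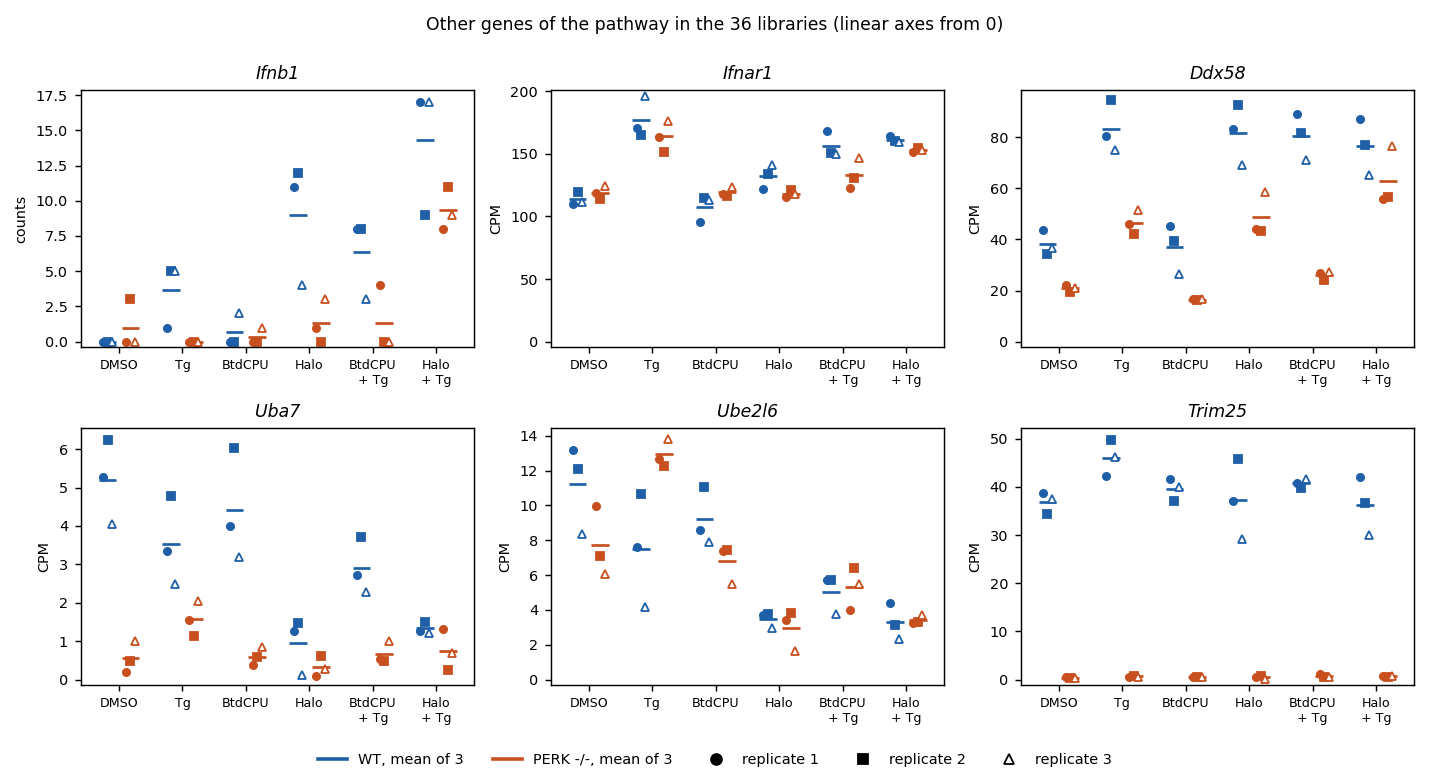
Counts of Ifnb1 and CPM of Ifnar1, Ddx58, Uba7, Ube2l6 and Trim25 by treatment in the 36 libraries on linear axes from 0, WT in blue and PERK -/- in orange, with lines at the mean of 3. Within each genotype Ifnb1 had the most counts with halofuginone + thapsigargin, 43 in WT and 28 in PERK -/- cells, while WT halofuginone had 27. Trim25 lies near 0 in every PERK -/- library.

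Of 10 tested receptor and JAK-STAT genes, 4 were higher and 2 lower in WT cells with thapsigargin, and 4 were higher and 0 lower in PERK -/- cells. For this and the lists below, the shares of all tested genes were 24.9% higher and 22.7% lower in WT cells with thapsigargin and 15.2% higher and 12.7% lower in PERK -/- cells. The median log2 difference of these 10 genes was 0.27 in WT and 0.21 in PERK -/- cells. Ifnar1, the receptor gene, rose in both genotypes with thapsigargin, by 0.64 (SE 0.0848, adjusted p 2.28e-07) in WT and 0.47 (SE 0.0846, adjusted p 7.11e-05) in PERK -/- cells. Ifnar2 fell by 0.52 (SE 0.0918, adjusted p 2.31e-05) when halofuginone was added to thapsigargin in WT cells. In PERK -/- cells it fell by 0.32 (SE 0.0912, adjusted p 0.00392) with that addition. The difference between genotypes was not called (0.21, SE 0.129, adjusted p 0.233).

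Among 15 tested nucleic acid sensors and adaptors, thapsigargin called 5 higher and 1 lower in WT cells (24.9% and 22.7% of all tested genes) and 6 higher and 1 lower in PERK -/- cells (15.2% and 12.7% of all tested genes). Ddx58, the RIG-I gene, rose by 1.12 (SE 0.158, adjusted p 6.16e-07) in WT and 1.16 (SE 0.16, adjusted p 1.25e-06) in PERK -/- cells. Ifih1, the MDA5 gene, rose by 1.56 (SE 0.281, adjusted p 3.02e-05) and 1.66 (SE 0.307, adjusted p 8.91e-05). The difference of the Ddx58 responses between genotypes was 0.03 (SE 0.222, adjusted p 0.946). Against the same shares of all tested genes, of 12 negative regulators 1 was higher and 4 were lower in WT cells with thapsigargin, and 1 was higher and 7 were lower in PERK -/- cells. Socs1, a feedback inhibitor of JAK kinases, fell by 1.40 (SE 0.206, adjusted p 3.44e-06) in PERK -/- cells, and Ptpn2, a phosphatase gene, rose by 0.92 (SE 0.0993, adjusted p 5.26e-09) in WT cells. Of 6 tested further IRF family genes and their binding partners 2 were higher and 1 lower in WT, and 0 higher and 2 lower in PERK -/- cells.

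Other antiviral interferon-stimulated genes were mixed. Of 64 tested, thapsigargin called 25 higher and 9 lower in WT cells (24.9% and 22.7% of all tested genes; median log2 0.55) and 16 higher and 2 lower in PERK -/- cells (15.2% and 12.7% of all tested genes; median 0.43, or 0.40 with genes at the detection floor of 3 counts set to their bound). Halofuginone called 20 higher and 19 lower in WT cells, close to the 34.7% and 33.4% of all tested genes. Its addition to thapsigargin called 2 higher and 20 lower in WT cells (22.8% and 22.5% of all tested genes, median -0.63). In PERK -/- cells that addition called 12 higher and 14 lower (25.2% and 27.5% of all tested genes), and the difference between genotypes called 15 higher and 4 lower (15.9% and 16.9% of all tested genes). Oasl1, which damps IRF7 translation, rose from 0.132 ± 0.117 to 4.23 ± 1.501 CPM with WT thapsigargin, and in PERK -/- cells it rose from 3.56 ± 0.785 to 15.7 ± 2.54 CPM when halofuginone was added (log2 2.14, SE 0.363, adjusted p 8.98e-06). Parp10 (log2 -1.32, SE 0.252, adjusted p 6.91e-05) and Dtx3l (-1.22, SE 0.295, adjusted p 0.00103), an ADP-ribosyltransferase gene and the partner gene of Parp9, fell with that addition in WT cells.

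Of 30 tested genes of interferon gamma responses and antigen presentation, thapsigargin called 17 higher and 3 lower in WT cells (24.9% and 22.7% of all tested genes, median 0.86) and 12 higher and 0 lower in PERK -/- cells (15.2% and 12.7% of all tested genes, median 0.75, or 0.56 at the bound). Cxcl10, a chemokine, went from 0.642 ± 0.205 to 35.05 ± 12.8 CPM in WT cells with thapsigargin (log2 5.76, SE 0.397, adjusted p 3.49e-13). PERK -/- cells held 11.3 ± 1.67 CPM of Cxcl10 in DMSO and 35.8 ± 5.53 CPM with thapsigargin, and the response was lower than in WT cells on the log2 scale (-4.11, SE 0.494, adjusted p 7.6e-08). Psmb10 (log2 -1.38, SE 0.175, adjusted p 1.42e-07) and Tap2 (-1.37, SE 0.242, adjusted p 2.6e-05), of the immunoproteasome and the peptide transporter, fell when halofuginone was added in WT cells, where 2 of the 30 were higher and 10 lower (22.8% and 22.5% of all tested genes). In untreated PERK -/- cells 3 of these 30 were higher than in WT and 16 lower, and of the 64 antiviral genes 6 were higher and 32 lower, against 24.6% higher and 24.9% lower among all tested genes. Irf5, a further IRF gene, stood at 2.95 ± 0.211 against 28.6 ± 5.54 CPM there (log2 -3.27, SE 0.28, adjusted p 1.88e-11), and Ifi205 at 0.273 ± 0.085 against 11.3 ± 1.58 CPM.

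Of the 4 genes of enzymes that attach ISG15 to proteins, 0 were called in either direction with WT thapsigargin in edgeR (24.9% of all tested genes were called higher and 22.7% lower), where Isg15 rose 5.999-fold. An unadjusted p below 0.05 was found for 1 of them, Ube2l6 (log2 -0.58, SE 0.272, adjusted p 0.0792). The share of all tested genes at that unadjusted level is not reported here. With WT halofuginone 2 of 4 were lower (33.4% of all tested genes): Uba7, the activating enzyme, went from 5.19 ± 1.10 to 0.953 ± 0.725 CPM (log2 -2.44, SE 0.519, adjusted p 0.000124), and Ube2l6, the conjugating enzyme, from 11.2 ± 2.53 to 3.48 ± 0.421 CPM (log2 -1.69, SE 0.286, adjusted p 5.06e-06). In PERK -/- cells thapsigargin, which also raised Isg15 there, raised Uba7 (1.49, SE 0.556, adjusted p 0.0435) and Ube2l6 (0.75, SE 0.271, adjusted p 0.0382). Halofuginone added to it lowered Ube2l6 (-1.91, SE 0.285, adjusted p 1.11e-06) and raised Herc6, a ligase gene (1.04, SE 0.265, adjusted p 0.00136), in the group with the highest Isg15. Trim25, a ligase that also acts on RIG-I, stood at 0.418 ± 0.0867 CPM in untreated PERK -/- cells and at 36.9 ± 2.21 CPM in WT cells (log2 -6.45, SE 0.264, adjusted p 3.07e-19), and in the 5 treated PERK -/- groups its means were 0.5004 to 0.709 CPM.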

How the data were processed

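RNA was extracted with a Zymo kit and sequenced on DNBSEQ as strand-specific libraries, and the labels name both ribosomal depletion and mRNA selection. The authors deposited estimated counts per gene for the 36 libraries, where 0.025 stands for 0 in 50.6% of values. Build GRCm39 and DESeq appear in the submitters' processing notes with no role. The aligner, counter, annotation and strand setting are not given in the sources used here.

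Counts were rounded, 27 date-named rows (0.206% to 0.278% of counts) were left out and 39 repeated symbols summed. One edgeR 4.0.16 quasi-likelihood fit (R 4.3.3, low-count filter by group, TMM scaling, 12 group means, 24 residual degrees of freedom) gave 20 contrasts. Within each contrast p-values of the 16065 genes received the Benjamini-Hochberg correction, and genes were called below 0.05. Exact intervals are at 95%. The script was tested on simulated counts. Members and gene lists were chosen with earlier results of these data known. Ifnb1, Ifnar1 and Ifnar2 were always named, with up to 2 called genes per list and contrast of largest change, with average log2 CPM of at least 0 and no overlap of groups, and the 3 genes most like each member. Values of named genes in other contrasts, such as Ddx58 in WT cells, were added after their values were seen. Some genes of the lists are not reported here. Alternatives were DESeq2 1.42.0, library size scaling, no filter, fits of the compared groups, a replicate block and leaving libraries out. Same-numbered libraries deviated together (every correlation over 0.1) in 2 comparisons, WT BtdCPU + thapsigargin against thapsigargin (0.159, 0.312 and 0.337) and WT halofuginone + thapsigargin against thapsigargin (0.162, 0.201 and 0.308). The cut is arbitrary. WT comparisons with DMSO missed it through replicate 1: thapsigargin (0.0408, 0.201 and 0.279), BtdCPU (0.0682, 0.254 and 0.287) and halofuginone (0.0645, 0.151 and 0.229). Their values above come from the fit without a block.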

Additional observations from a re-analysis of the deposited data

Results flagged for a closer look

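For 5 results the response differed between the genotypes by the test of the difference itself, as PERK -/- response minus WT response on the log2 scale. With thapsigargin 1 of the 9 was called (38.1% of tested genes were), Irf9 at -0.99. With halofuginone 1 was called (35% of tested genes), Stat2 at -0.92. With BtdCPU added to thapsigargin 1 was called (20.8% of tested genes), Irf1 at -1.54. With halofuginone added to thapsigargin 2 were called (32.7% of tested genes), Irf9 at 1.08 and Usp18 at 4.39. The thapsigargin groups enter this difference and the one with thapsigargin with opposite sign. The 2 Irf9 results are therefore not independent, and both were lost without WT thapsigargin replicate 2 (adjusted p 0.101 and 0.164). With BtdCPU alone 0 were called (0.199% of tested genes). In this fit, beside these shares, the counts do not set the 9 genes apart from tested genes at large. With a replicate block within genotype more of the 9 were called for the differences with thapsigargin, halofuginone and both additions, as given below. The share of all tested genes called in that fit is not reported here, so it allows no such comparison. The differences of Irf1 and Usp18 were called whichever 1 library was left out, and those of Irf9 and Stat2 were not.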

How the results depend on the processing

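Of 180 log2 fold changes of the 9 genes 71 were called. All 71 kept their sign under each alternative run, 46 stayed called under each, and 25 were lost when some single library was left out. Leaving out a library also lowers the power of the test, so a lost call does not show that it rested on that library. The Isg15 call for PERK -/- BtdCPU + thapsigargin against DMSO was lost without PERK -/- DMSO replicate 2, while its log2 change went from 1.39 to 1.44. Of those not called, 63 were called under at least 1 alternative and 25 changed sign under at least 1. The numbers below are counts of called genes among the 9, with Tg for thapsigargin. For most of them the share of all tested genes called under the same setting is not reported here.

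Without a filter on low counts they were 6 for WT BtdCPU, 8 and 6 for BtdCPU and halofuginone added to Tg in WT cells, 1 and 8 for PERK -/- BtdCPU and halofuginone, 5 and 9 for their addition to Tg, 7 between genotypes in DMSO, and 6, 4, 6 and 7 for the differences between genotypes with Tg, halofuginone, BtdCPU added to Tg and halofuginone added to Tg. With a replicate block within genotype they were, in the same order, 6, 7 and 4, 1 and 8, 4 and 8, 6, and 6, 2, 6 and 7. No other count of calls moved by over 1.5 times under the block. With the compared groups alone in the fit they were 0 for WT BtdCPU, 1 for PERK -/- BtdCPU, 5 and 8 for the additions in PERK -/- cells, 5 between genotypes in DMSO and 2, 2 and 4 for the differences with Tg and the additions of BtdCPU and halofuginone. DESeq2 called 2 for WT BtdCPU and 2 for the Tg difference, and library size scaling called 0 for the Tg and 0 for the halofuginone difference. Without the 6 WT libraries numbered 3, chosen after seeing the data, they were 3 for WT BtdCPU, 2 and 4 for the additions in WT cells, 7 between genotypes in DMSO, and 4, 2, 5 and 7 for the 4 differences. The cause was not tested.

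With 1 library left out, the counts ran from 8 to 9 (WT Tg), 0 to 2 (WT BtdCPU), 5 to 9 (WT halofuginone), 0 to 1 (BtdCPU added to Tg), 5 to 9 (the same against DMSO), 0 to 1 (halofuginone added to Tg) and 6 to 8 (the same against DMSO). In PERK -/- cells they ran in that order from 3 to 4, 0 to 0, 3 to 5, 1 to 1, 3 to 5, 2 to 3 and 6 to 7, between genotypes in DMSO from 2 to 5, and for the differences from 0 to 2 (Tg), 0 to 0 (BtdCPU), 0 to 1 (halofuginone), 1 to 2 and 1 to 4 (the additions).

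Over all tested genes, WT BtdCPU gave 3571 calls, 5534 with the block and 835 with its own groups. BtdCPU added to Tg in WT cells gave 372, and 813 with no filter, 2079 with the block, 23 with its own groups, 872 with DESeq2 and 71 without the WT libraries numbered 3. PERK -/- BtdCPU gave 577, and 1577, 1265 and 881 with the block, own groups and DESeq2. The BtdCPU difference gave 32, and 314, 587, 2 and 161 with no filter, the block, own groups and DESeq2. Depth limits Rsad2 and Ifnb1, which had few or no control counts.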
